A study of Homo sapiens with 21 samples.

Results

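The proteasome is the protease complex that degrades ubiquitin-tagged proteins, and its subunits and dedicated assembly factors were followed in human neuronal cells exposed to 6 per- and polyfluoroalkyl substances (PFAS). The members were the protein-coding genes whose symbol begins with PSM, then one of the letters A to G and a digit, together with POMP. That rule took 51 of the 62656 genes in the raw count table. Another 44 genes with matching symbols were pseudogenes and 7 were of other types, and these were left out. Of the 51 members, 48 passed a filter on low counts and could be tested among 24879 genes. The 3 that did not pass were PSMA8, PSMB9 and PSMB11.

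RNA was sequenced from SH-SY5Y, a cell line from a human neuroblastoma that takes on neuron-like features when differentiated. The cells had been differentiated for 11 days. The exposed groups received PFOA, PFOS, PFDA, PFDS, 8:2 FTS or 8:2 FTOH at 30 µM for 24 h, with 1% methanol in the treatment solutions, and Control cells formed the seventh group. The labels used here do not give the methanol content of the Control cells. Each group had 3 libraries, 21 in all. All groups come from 1 cell line, and no label says that the 3 libraries of a group were separate cultures, so a p-value reflects no more than the spread of these libraries, and that spread may be technical. The perfluoroalkyl carboxylic acids are PFOA, with the shorter chain, and PFDA, with the longer one. PFOS is the shorter and PFDS the longer of the perfluoroalkyl sulfonic acids. The fluorotelomers, only part of whose chain is fluorinated, are 8:2 FTS, which ends in a sulfonic acid, and 8:2 FTOH, which ends in an alcohol.

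The catalytic particle, the 20S core, is a barrel of stacked rings. Outer rings of alpha subunits (PSMA genes) gate the entry, and inner rings of beta subunits (PSMB genes) hold the active sites. The 19S cap recognises ubiquitin chains, removes them and threads the substrate into the core: its ATPases (PSMC genes) drive unfolding, and its non-ATPase subunits (PSMD genes) form the scaffold, the ubiquitin receptors and the lid. When proteasome activity is limiting, the transcription factor NFE2L1 is known to raise many of these genes together through antioxidant response elements. In neurons, clearance of misfolded proteins leans heavily on this system.

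Total counts per library ran from 7680024 to 30429746, with a median of 14633793, and 8:2 FTOH replicate 3 was the shallowest. Genes of the mitochondrial chromosome took 6.11% of the total in 8:2 FTOH replicate 3 and 6.33% in Control replicate 3, and 3.37% to 5.4% elsewhere. Some counts of members by direction and at an unadjusted p under 0.05 are also given without these 2 libraries. Counts of members whose groups do not overlap are given with all libraries only. Of 12 markers of differentiated or noradrenergic neuroblastoma, 11 averaged at least 1 CPM (counts scaled to library size with TMM factors). Their summed level was 8170 to 10900 CPM across the exposed libraries and 10300 to 10600 CPM in the Control libraries, and only the PFDS range reached that of Control. The part of this marker level in the proteasome results was not tested. Of 7 markers of mesenchymal neuroblastoma or fibroblasts, 5 averaged at least 1 CPM, and their sum lay between 297 and 380 CPM over all libraries. Summed blood and microglia markers stayed between 1.79 and 4.95 CPM, with 1 of 4 averaging at least 1 CPM and AIF1 at 0 in Control. Summed glial markers lay between 6.64 and 10.5 CPM, with 3 of 5 averaging at least 1 CPM. In bulk RNA, fewer cells of a type and less RNA per cell cannot be told apart.

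Levels in the Control cells, expressed per length as RPKM (reads per kilobase of exon, per library size, scaled with TMM factors), spread widely among subunits that the complex holds in equal numbers. The constitutive beta subunits were the most abundant role, with a median of 36.1 RPKM and a range of 21.5 to 75.7 RPKM over 7 genes. PSMB4, a structural beta subunit on chromosome 1 (151399560 to 151401937, plus strand), led all members with 75.7 ± 5.37 RPKM (SD, n = 3). PSMA7, an alpha subunit, followed with 68.7 ± 3.64 RPKM, and the spreads of these neighbours overlapped. The chymotrypsin-like subunit PSMB5 had 47.2 ± 2.0 RPKM, the trypsin-like PSMB7 43.1 ± 3.45 RPKM and the caspase-like PSMB6 31.4 ± 3.01 RPKM. The 7 alpha subunits with counts differed by 82.5-fold between the highest, PSMA7, and the lowest, PSMA2, with 0.833 ± 0.122 RPKM. PSMA2 shares 17.25% of its exon bases with a gene on the same strand, PSMA1 26.69% and PSMA6 14.13%. Reads over several genes were not counted, so these levels are uncertain, and the part of this in the spread was not tested.

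The ATPases had a median of 15.8 RPKM, led by PSMC4 with 35.3 ± 0.755 RPKM, and the non-ATPase subunits one of 17.9 RPKM, led by the ubiquitin receptor PSMD4 with 42.1 ± 2.47 RPKM. Assembly factors lay lower. The median was 8.59 RPKM for the 5 factors of the 20S core, led by POMP with 15.3 ± 1.0 RPKM, and 8.68 RPKM for the 3 of the 19S base, led by PSMD10 with 9.56 ± 2.26 RPKM. The activators, which open the core without the 19S cap, had a median of 21.1 RPKM, led by PSME1 with 26.3 ± 1.65 RPKM. Lengths are those of the merged exons of each gene in the count table, so long or rarely used exons lower a value. TPM gave every one of the 51 members the same rank. It rests on the same counts and lengths, so it ranks genes alike within a library and is no check on length.

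**Figure D1:**
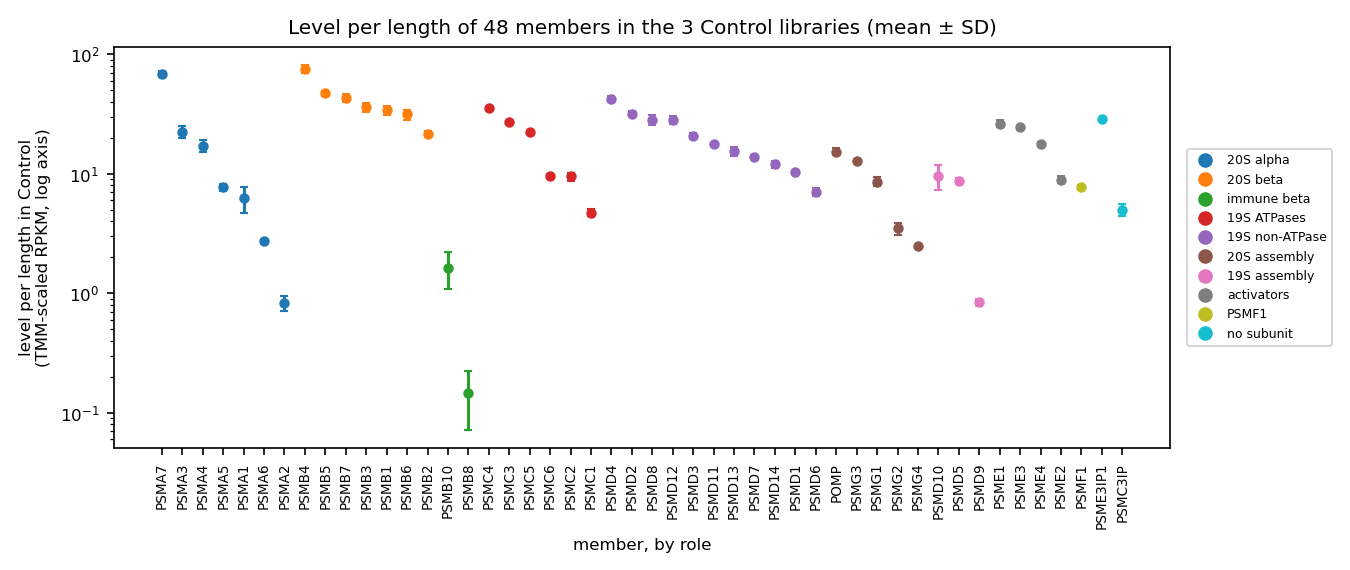
Level per length of 48 members in the Control cells, in TMM-scaled RPKM on a log axis, by role; points are means and bars SD over 3 libraries. PSMB4 and PSMA7 stand highest at 75.7 and 68.7 RPKM, the constitutive beta subunits form the highest group, and PSMB8 is the lowest shown at 0.147 RPKM; PSMA8, PSMB9 and PSMB11, at 0 to 0.0172 RPKM, are not drawn.

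The interferon-inducible and tissue-restricted subunits had the lowest counts, with PSMA8, PSMB9 and PSMB11 at or near 0. PSMA8, a testis-type alpha subunit, had 0 counts in 21 of 21 libraries, which allows up to 3 counts, or 0.0986 to 0.391 CPM depending on the library, for counting error only. PSMB9, an immunoproteasome subunit, had 3 counts in 2 of the 21 libraries, and PSMB11, the thymic subunit, 15 counts in 6 of them. PSMB8, another immunoproteasome subunit, lay between 0.137 and 0.868 CPM. PSMB10, the third of these, lay between 1.8 and 5.48 CPM, but 39.36% of its exon bases overlap another gene, so its counts are uncertain.

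Other members with uncertain counts are those that share exon bases with a neighbour, because reads were counted without strand and reads over several genes were not counted. The largest portion shared with 1 neighbour was 76.15% for PSMC1 (with NRDE2), 31.17% for PSMD7, 30.06% for PSMC3IP, 26.69% for PSMA1, 17.3% for PSMB8, 17.25% for PSMA2 and 15.31% for PSMC5. It was 14.9% for PSMD9, 14.13% for PSMA6, 13.33% for PSMG4, 8.07% for PSME3IP1, 7.86% for PSMD11, 6.56% for PSMF1, 6.03% for PSME2, 5.82% for PSME3 and 5.21% for PSMB9, and under 5% for every other member but PSMB10. Pseudogenes of a member can also take its reads. Their counts came to 28.837% of the parent's for PSMD10, 18.747% for PSME2 and 10.776% for PSMA2.

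Promoter sequences were available from RefSeq (build GRCh38.p14) for 45 of the 51 members, as the 300 bases from 250 before to 50 after a gene's start. The letters TGACNNNGC, the core of the antioxidant response element, were found on either strand in 13 of those 45 promoters (28.9%) and in 5 of 27 promoters of core and cap subunits (18.5%), against 13.6% of all 27305 promoters. Within the 250 bases before the start alone, the shares were 24.4% of the members, 11.1% of the core and cap subunits (3 of 27) and 11.0% of all promoters. The 13 were PSMB3, PSMB9, PSMC4, PSMD1, PSMD3, PSMD5, PSMD9, PSMD12, PSME1, PSME2, PSME4, PSMG1 and PSMG2. CCAAT, the letters of the box bound by NF-Y, stood in 46.7% of the member promoters and 35.7% of all promoters. GCATGCGC, from the site of nuclear respiratory factor 1, stood in 4.44% (2 of 45) and 3.27%. TTCNNGAA, from the heat shock element, stood in 4.44% (2 of 45) and 7.84%. All members are protein-coding, and among the 15843 promoters of protein-coding genes TGACNNNGC stood in 14.3%, or 11.5% before the start. In those promoters CCAAT stood in 36.4%, GCATGCGC in 4.26% and TTCNNGAA in 6.6%. All 4 motifs were searched on both strands, counted separately and allowed to overlap. A match is a description of letters, not evidence of binding.

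The promoters of 5 members are shown because the expression results below turn on their genes. PSMD11 and PSMD3 had 2 of the 3 smallest p-values under 8:2 FTOH, and POMP had the smallest under PFDS. PSMC5 and PSMC4 were the ATPases whose libraries lay below Control under the most compounds. The other of the 3 under 8:2 FTOH, PSMA1, had no match to TGACNNNGC and is not shown. Capitals mark matches to TGACNNNGC on either strand. PSMD3 (chr17:39980557-39980856, plus strand) had 1 match before its start and 1 after it. PSMC4 (chr19:39970915-39971214, plus strand) had 1 match, 27 bases after its start. PSMC5 (chr17:63827181-63827480, plus strand), PSMD11 (chr17:32444260-32444559, plus strand) and POMP (chr13:28658880-28659179, plus strand) had none.
PSMD3: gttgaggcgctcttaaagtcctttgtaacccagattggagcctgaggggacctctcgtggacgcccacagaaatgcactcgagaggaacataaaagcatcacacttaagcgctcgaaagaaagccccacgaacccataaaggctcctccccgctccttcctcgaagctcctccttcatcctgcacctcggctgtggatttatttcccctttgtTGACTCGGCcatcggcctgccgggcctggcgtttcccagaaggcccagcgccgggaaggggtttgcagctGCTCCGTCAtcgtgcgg
PSMC4: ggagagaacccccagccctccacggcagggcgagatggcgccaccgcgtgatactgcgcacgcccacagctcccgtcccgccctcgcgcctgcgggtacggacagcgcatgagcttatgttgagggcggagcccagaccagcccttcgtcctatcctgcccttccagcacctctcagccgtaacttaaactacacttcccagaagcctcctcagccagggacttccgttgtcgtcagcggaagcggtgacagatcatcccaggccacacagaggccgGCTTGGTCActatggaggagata
PSMC5: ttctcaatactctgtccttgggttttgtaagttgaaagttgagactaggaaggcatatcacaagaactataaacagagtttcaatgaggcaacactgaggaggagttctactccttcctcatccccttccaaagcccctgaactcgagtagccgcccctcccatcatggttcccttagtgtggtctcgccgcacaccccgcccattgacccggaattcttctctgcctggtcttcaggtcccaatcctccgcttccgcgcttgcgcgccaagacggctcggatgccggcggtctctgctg
PSMD11: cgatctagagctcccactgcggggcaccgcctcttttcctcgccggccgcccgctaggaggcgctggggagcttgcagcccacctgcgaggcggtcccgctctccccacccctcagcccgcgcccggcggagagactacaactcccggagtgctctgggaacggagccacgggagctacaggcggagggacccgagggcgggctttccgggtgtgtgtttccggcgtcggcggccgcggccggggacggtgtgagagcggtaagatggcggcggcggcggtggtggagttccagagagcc
POMP: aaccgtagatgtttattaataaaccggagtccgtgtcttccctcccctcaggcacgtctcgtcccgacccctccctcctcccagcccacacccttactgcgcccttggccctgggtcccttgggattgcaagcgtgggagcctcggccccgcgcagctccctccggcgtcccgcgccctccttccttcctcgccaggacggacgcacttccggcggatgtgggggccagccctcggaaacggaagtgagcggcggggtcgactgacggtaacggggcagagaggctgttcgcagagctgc

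No proteasome member passed the threshold in any comparison. Each compound was set against Control, as were the 6 compounds together (the mean of their log2 levels), with edgeR's quasi-likelihood test and Benjamini-Hochberg adjustment over all 24879 genes at 0.05. Few genes of any kind were called in this design. The share of genes called was 0.0322% under PFOA, 0.0241% under PFOS, 0.00804% under PFDA and 0.0241% under PFDS. It was 0.0844% under 8:2 FTS, 0.0322% under 8:2 FTOH and 0.35% for the 6 compounds together, and 0 of 48 members was called in each. DESeq2 also called 0 members, with a lowest adjusted p of 0.0521. The lowest adjusted p of any member was 0.166, for POMP under PFDS. The comparisons share the same 3 Control libraries, so their values are not independent of each other.

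The 95% intervals of the fold changes were narrow for most members. The whole interval lay within 0.5 on the log2 scale for 42 of 48 members under PFOA and under PFOS, 43 under PFDS and under 8:2 FTOH, and 44 under PFDA and under 8:2 FTS. Fold changes of the members ran from -0.24 to 0.49 for PFOA, -0.26 to 0.34 for PFOS and -0.74 to 0.27 for PFDA. They ran from -0.34 to 0.43 for PFDS, -0.25 to 0.42 for 8:2 FTS and -0.19 to 0.37 for 8:2 FTOH. The lowest, -0.74, was that of PSMB8, with a 95% interval of -2.05 to 0.56.

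The direction of the uncalled differences leaned one way for 5 compounds and the other way for 8:2 FTOH. Positive fold changes were found for 17 of 48 members under PFOA, 11 under PFOS, 12 under PFDA, 9 under PFDS and 13 under 8:2 FTS, and for 37 of 48 under 8:2 FTOH. The member medians were -0.04 (PFOA), -0.07 (PFOS), -0.09 (PFDA), -0.08 (PFDS), -0.06 (8:2 FTS) and 0.05 (8:2 FTOH), beside medians of all genes of 0.00 to 0.01, with 50.5% to 51.8% of all genes positive. Among the 31 tested core and cap subunits alone, 8, 5, 4, 5 and 6 were positive under those 5 compounds, and 28 under 8:2 FTOH.

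These directions depended in part on the scaling. With libraries scaled by their total counts only, the median of all genes was 0.03 to 0.08 and the positive members numbered 26 under PFOA, 19 under PFOS, 18 under PFDA and 13 under PFDS, with 23 under 8:2 FTS and 40 under 8:2 FTOH. The member medians were then 0.03, -0.03, -0.03, -0.06, -0.01 and 0.10 in that order of compounds, so the sign for PFOA turned. Of the 31 core and cap subunits, 16, 9, 10, 7, 12 and 29 were then positive in the same order. For the 6 compounds together 25 of 48 members were positive, in place of 12, with a median of 0.00. Rescaling moves all genes of a comparison by about the same amount, so it could hardly change the gap between members and all genes. Under both scalings the members' medians lay below the median of all genes for the 5 other compounds and above it for 8:2 FTOH.

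The number of positive members also moved with single libraries. Leaving out 1 library at a time gave 13 to 21 under PFOA, 8 to 20 under PFOS, 10 to 14 under PFDA, 8 to 14 under PFDS and 10 to 18 under 8:2 FTS. Without Control replicate 2 the number was 20 under PFOS and 18 under 8:2 FTS, with medians of -0.03 for both, and 21 for the 6 compounds together, where it was 12 with all libraries. Without PFOS replicate 1 it was 17 under PFOS, and without PFDS replicate 1 it was 14 under PFDS. The median stayed below 0 for those 5 compounds and above 0 for 8:2 FTOH whichever single library was left out.

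**Figure D2:**
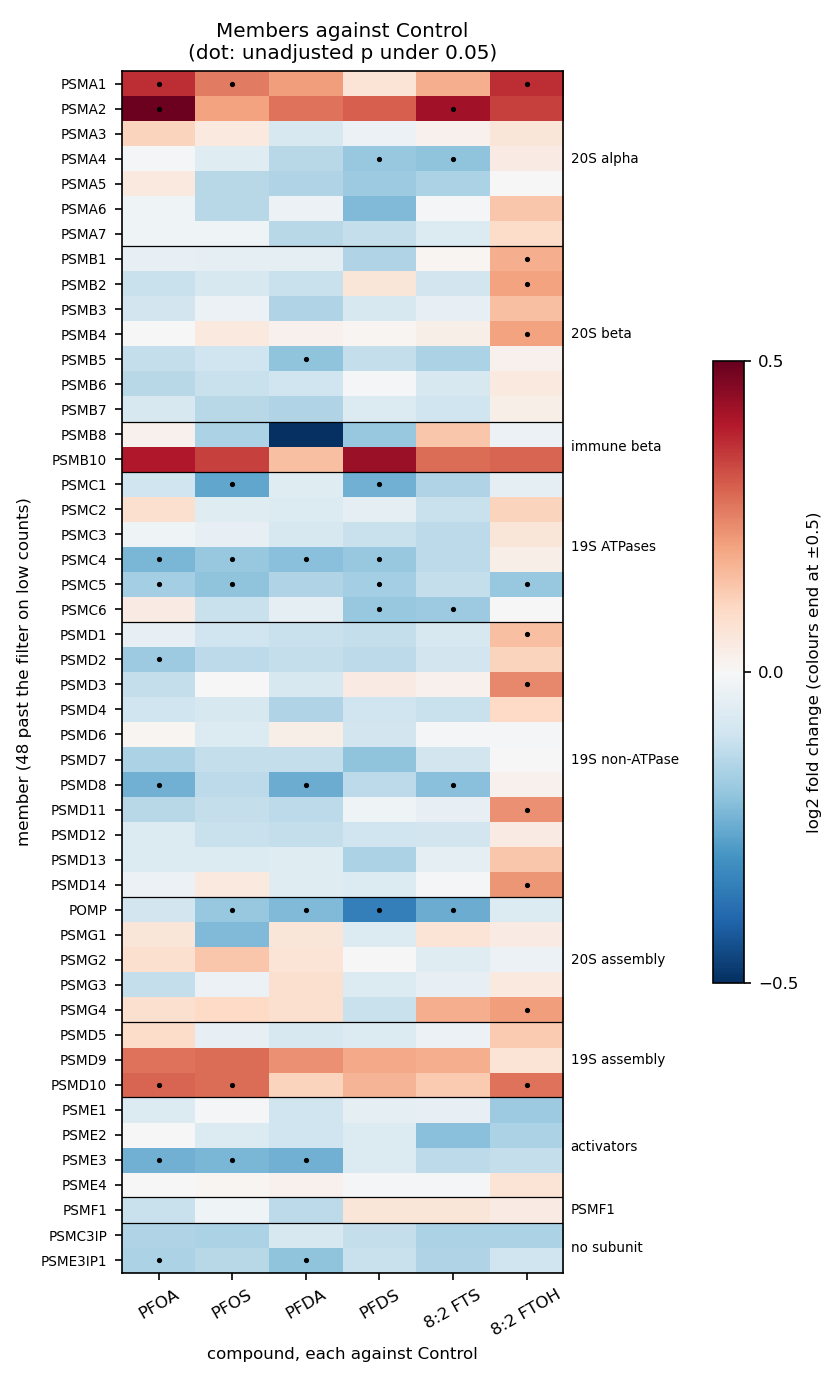
Log2 fold change of each of the 48 tested members (rows, by role) under each compound against Control (columns), with a dot where the unadjusted p was under 0.05. Most core and cap rows are blue under PFOA to 8:2 FTS and red under 8:2 FTOH, where 28 of 31 are positive; scaling by total counts alone shifts all columns up, and no member passed the adjusted threshold.

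**Figure D3:**
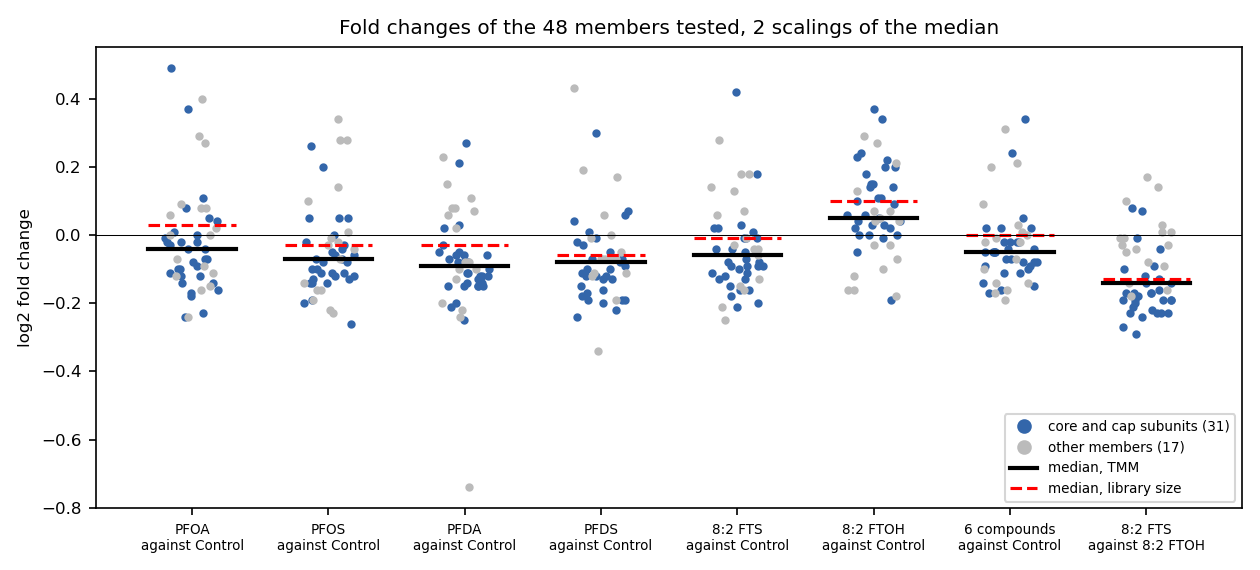
Log2 fold changes of the 48 tested members (points) in 8 comparisons, with the median under TMM scaling and under scaling by total counts. The median lies below 0 for the 5 compounds other than 8:2 FTOH and at 0.05 for 8:2 FTOH; under scaling by total counts the PFOA median turns to 0.03.

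At an unadjusted p under 0.05, 3 members were positive and 6 negative under PFOA, against 4.46% and 5.6% of all genes. Under PFOS the counts were 2 and 5, against 3.26% and 3.57%. Under PFDA they were 0 and 6, against 4.04% and 4.39%, and under PFDS 0 and 6, against 2.56% and 3.03%. Under 8:2 FTS they were 1 and 4, against 3.57% and 4.2%. Under 8:2 FTOH they were 10 and 1, against 3.55% and 4.28%. For the 6 compounds together they were 3 and 6, against 4.3% and 5.67%.

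These counts at an unadjusted p under 0.05, taken over both directions, rested in large part on single libraries. Without Control replicate 2 they were 3 under PFOA where all libraries gave 9, 2 under PFOS where they gave 7, and 2 under PFDA where they gave 6. Without that library they were also 1 under PFDS in place of 6, 2 under 8:2 FTS in place of 5, and 2 for the 6 compounds together in place of 9. Without Control replicate 1 they were 4 under PFOS, 7 under 8:2 FTOH in place of 11, and 5 for the 6 compounds. Leaving out PFOA replicate 1 gave 5 under PFOA, and leaving out PFOS replicate 1 gave 4 under PFOS. For PFDS the count was 16 without PFDS replicate 3, 10 without Control replicate 3 and 3 without either PFDS replicate 1 or PFDS replicate 2. For 8:2 FTS it was 11 without replicate 3 and 2 without replicate 1 of that compound. For 8:2 FTOH it was 5 without 8:2 FTOH replicate 2 and 9 without 8:2 FTOH replicate 3 and Control replicate 3 together. Without those 2 libraries the count rose to 9 under PFOS, 9 under PFDA, 11 under PFDS and 6 under 8:2 FTS. It stayed at 9 under PFOA and for the 6 compounds together.

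Counting members whose 3 exposed libraries lay wholly above or below the 3 Control libraries gave the same lean. It rests on the same libraries and scaling as the counts above, so it is no separate support for that lean. Such members numbered 2 above and 9 below for PFOA, where the shares of all genes were 7.45% and 8.46%. For PFOS they were 2 and 9, beside 6.62% and 7.41%. For PFDA they were 1 and 13, beside 7.92% and 7.85%. For PFDS they were 0 and 7, beside 3.72% and 4.53%. For 8:2 FTS they were 2 and 6, beside 6.64% and 7.17%. For 8:2 FTOH they were 7 and 2, beside 5.95% and 6.98%. Over all 18 exposed libraries, 0 members lay above and 1 below, beside 0.129% and 0.342% of all genes.

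In the alpha ring, PSMA1 and PSMA2 had positive fold changes under all 6 compounds, and both have uncertain counts. PSMA1 (ENSG00000129084, chromosome 11, 14504874 to 14643635, minus strand) had 22.2, 28.7 and 23.1 CPM under PFOA, 21.4, 22.7 and 24.4 under PFOS and 21.7, 23.6 and 20.9 under PFDA. It had 19.6, 20 and 20 CPM under PFDS, 20.4, 23.1 and 21.2 under 8:2 FTS and 23.5, 24.7 and 25.6 under 8:2 FTOH, against 16.3, 16.2 and 24.6 CPM in Control. All 6 exposed groups overlapped Control, because Control replicate 3 stood with the exposed libraries and apart from the other Control libraries. The log2 fold change of PSMA1 was 0.37 (SE 0.13) under both PFOA and 8:2 FTOH, with adjusted p of 0.287 for PFOA and 0.396 for 8:2 FTOH (edgeR). Without Control replicate 3 it was 0.60 with an adjusted p of 0.0146 for PFOA, with 0.0111 to 0.863 over the alternative processing settings, and 0.59 with 0.0285 for 8:2 FTOH, over alternatives from 0.0285 to 0.916.

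PSMA2 had 10.8, 9.18 and 9.47 CPM under PFOA, 8.27, 8.18 and 7.63 under PFOS and 8.24, 9.38 and 7.83 under PFDA. Its levels were 10.3, 9.61 and 6.42 CPM under PFDS, 9.47, 9.53 and 9.06 under 8:2 FTS and 6.34, 9.91 and 10.3 under 8:2 FTOH, against 5.95, 7 and 7.99 CPM in Control, and the PFOA and 8:2 FTS libraries lay above all Control libraries. Its log2 fold changes were 0.49 under PFOA (SE 0.18, edgeR adjusted p = 0.329) and 0.42 under 8:2 FTS (SE 0.18, edgeR adjusted p = 0.543). PSMA4 had 126, 119 and 113 CPM under PFOA, 112, 122 and 111 under PFOS and 101, 118 and 107 under PFDA. It had 98.8, 108 and 108 CPM under PFDS, 104, 101 and 107 under 8:2 FTS and 136, 116 and 118 under 8:2 FTOH, against 104, 131 and 124 CPM in Control. Control replicate 1 was lower than the other Control libraries, so that every group overlapped Control, and the lowest fold changes were -0.20 under 8:2 FTS and -0.19 under PFDS. PSMA7, the most abundant alpha subunit per length, had 115, 125 and 117 CPM under PFOA, 112, 135 and 111 under PFOS and 105, 112 and 112 under PFDA. Its other levels were 93.3, 106 and 131 CPM under PFDS, 121, 109 and 114 under 8:2 FTS and 135, 131 and 119 under 8:2 FTOH, against 115, 127 and 120 CPM in Control. Only the PFDA libraries lay apart from Control, below it, and its fold changes lay between -0.14 and 0.09 over the 6 compounds.

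Among the constitutive beta subunits, at most 2 of 7 had a positive fold change under each compound other than 8:2 FTOH, and 7 of 7 did under 8:2 FTOH. Scaling by total counts made those numbers at most 3 and 7. PSMB5 (ENSG00000100804, chromosome 14, 23016543 to 23035230, minus strand) had 63.9, 70.8 and 66.4 CPM under PFOA, 63.1, 74.7 and 67.8 under PFOS and 58.8, 67.8 and 65.0 under PFDA. It had 59.4, 66.3 and 74.9 CPM under PFDS, 63.7, 61.3 and 71.3 under 8:2 FTS and 75.6, 77.3 and 69.6 under 8:2 FTOH, against 70.9, 76.6 and 71.7 CPM in Control. Its PFOA and PFDA libraries lay below all Control libraries, and the other groups overlapped Control. The lowest fold change of PSMB5 was -0.20 (SE 0.09) under PFDA, with an edgeR adjusted p of 0.537.

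The other catalytic subunits overlapped Control under all 6 compounds. PSMB6 had 36.8, 46.4 and 40.6 CPM under PFOA, 40, 45.1 and 41.4 under PFOS and 38.7, 49.2 and 40.2 under PFDA. It had 36.6, 42.9 and 54.4 CPM under PFDS, 45.6, 41.2 and 41.6 under 8:2 FTS and 46.6, 51.5 and 42.3 under 8:2 FTOH, against 44.2, 50.3 and 41.9 CPM in Control, and all groups overlapped Control. Its fold changes over the 6 compounds lay between -0.14 and 0.05. PSMB7 had 78.6, 70.8 and 70 CPM under PFOA, 71.9, 73.3 and 64.6 under PFOS and 68.3, 71.4 and 69.3 under PFDA. It had 64.2, 74.6 and 81.2 CPM under PFDS, 72.2, 64.9 and 79.1 under 8:2 FTS and 83.3, 81.7 and 70.6 under 8:2 FTOH, against 70.1, 79.8 and 81.5 CPM in Control, again with overlap in every group and fold changes between -0.15 and 0.03.

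The structural subunit PSMB4 had 158, 168 and 157 CPM under PFOA, 159, 177 and 163 under PFOS and 162, 158 and 170 under PFDA. Its other levels were 145, 164 and 178 CPM under PFDS, 165, 155 and 171 under 8:2 FTS and 186, 206 and 158 under 8:2 FTOH, against 154, 174 and 155 CPM in Control. Replicates 1 and 2 of 8:2 FTOH were the highest libraries and replicate 3 lay within the Control range, and the log2 fold change under 8:2 FTOH was 0.20 (SE 0.08, edgeR adjusted p = 0.525). The inducible counterparts had no called difference either. PSMB10 had 5.48, 2.16 and 3.11 CPM under PFOA, 2.75, 4.58 and 2.96 under PFOS and 3.46, 2.85 and 2.57 under PFDA. Its other levels were 2.96, 4.29 and 3.54 CPM under PFDS, 2.31, 4.46 and 3.08 under 8:2 FTS and 3.13, 3.63 and 2.84 under 8:2 FTOH, against 3.6, 1.8 and 2.62 CPM in Control, and all groups overlapped Control, with fold changes of 0.15 to 0.43 on uncertain counts. PSMB8 had 0.685, 0.448 and 0.451 CPM under PFOA, 0.581, 0.6 and 0.137 under PFOS and 0.427, 0.15 and 0.286 under PFDA. It had 0.76, 0.444 and 0.233 CPM under PFDS, 0.481, 0.384 and 0.854 under 8:2 FTS and 0.165, 0.868 and 0.259 under 8:2 FTOH, against 0.311, 0.419 and 0.809 CPM in Control, with overlap in every group and 95% intervals that reached beyond 1 on the log2 scale. PSMB9 had counts only in 8:2 FTOH replicate 3 (0.129 CPM) and Control replicate 3 (0.0952 CPM).

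The 19S ATPases were negative in 6 of 6 genes under PFOS, PFDA, PFDS and 8:2 FTS. Under PFOA 2 of 6 were positive and under 8:2 FTOH 4 of 6. Scaling by total counts left 6 of 6 negative under PFDS and 8:2 FTS, with 1 positive under PFOS and 2 under PFDA. PSMC4 (ENSG00000013275, chromosome 19, 39971165 to 39981764, plus strand), an ATPase of the base, had 73.3, 81.0 and 75.5 CPM under PFOA, 71.6, 83.1 and 82.8 under PFOS and 78.7, 75.3 and 78.8 under PFDA. It had 76.0, 71.1 and 88.3 CPM under PFDS, 82.8, 72.0 and 91.2 under 8:2 FTS and 90.7, 99.1 and 85.5 under 8:2 FTOH, against 89.5, 92.0 and 88.2 CPM in Control. The PFOA, PFOS and PFDA libraries lay below every Control library. The log2 fold changes were -0.23, -0.19, -0.21, -0.19, -0.13 and 0.03 in the order of the 6 compounds given, with the lowest edgeR adjusted p at 0.337, for PFOA.

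PSMC5 (ENSG00000087191, chromosome 17, 63827152 to 63832026, plus strand) had negative fold changes under all 6 compounds. It had 82.6, 89.8 and 81 CPM under PFOA, 83.6, 85.1 and 78.9 under PFOS and 83, 95.1 and 79.1 under PFDA. Its other levels were 77.5, 86.5 and 90 CPM under PFDS, 89.4, 81.3 and 91.6 under 8:2 FTS and 79.7, 87.2 and 83.3 under 8:2 FTOH, against 98.2, 95.3 and 92 CPM in Control. The libraries of all compounds but PFDA lay below every Control library. The fold changes lay between -0.20 and -0.12, with -0.19 under 8:2 FTOH, where most subunits were positive. For the 6 compounds together the fold change was -0.17 (SE 0.06, edgeR adjusted p = 0.255). PSMC1 had 30, 26.5 and 24.8 CPM under PFOA, 22.1, 24.6 and 26.2 under PFOS and 26.3, 32.4 and 25.2 under PFDA. It had 21.4, 24.7 and 27.1 CPM under PFDS, 26.7, 23.4 and 28.4 under 8:2 FTS and 29, 28.3 and 26.8 under 8:2 FTOH, against 28, 31.3 and 27.7 CPM in Control. The PFOS and PFDS libraries lay below Control, but most exon bases of this gene are shared with NRDE2. PSMC6 had 81.5, 70.1 and 68.1 CPM under PFOA, 68.1, 63 and 65.3 under PFOS and 66.6, 73.4 and 65.4 under PFDA. It had 67.2, 57.7 and 61.3 CPM under PFDS, 60.7, 63.8 and 62.9 under 8:2 FTS and 72, 68.1 and 73.6 under 8:2 FTOH, against 67.9, 74.3 and 70.7 CPM in Control. The PFDS and 8:2 FTS libraries lay below Control, with fold changes of -0.19 under PFDS and -0.18 under 8:2 FTS (edgeR adjusted p = 0.799 and 0.57).

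The non-ATPase subunits of the cap differed in sign between 8:2 FTOH and the other compounds, with no call. Under each of the 5 compounds other than 8:2 FTOH, 1 of 11 was positive, and under 8:2 FTOH 10 of 11 were. With total-count scaling 2 to 5 of 11 were positive under those 5 compounds and 11 of 11 under 8:2 FTOH. PSMD11 (ENSG00000108671, chromosome 17, 32444379 to 32483319, plus strand), a lid subunit with 7.86% of its exon bases shared with an antisense gene, had 106, 123 and 117 CPM under PFOA, 117, 119 and 116 under PFOS and 116, 108 and 124 under PFDA. It had 122, 118 and 135 CPM under PFDS, 123, 121 and 127 under 8:2 FTS and 144, 166 and 135 under 8:2 FTOH, against 126, 127 and 128 CPM in Control. The 8:2 FTOH libraries stood above every Control library, and the PFOA, PFOS and PFDA libraries below every one. The fold change was 0.23 under 8:2 FTOH (SE 0.08, unadjusted p = 0.00452, edgeR adjusted p = 0.369), and none of 13 alternatives called it, with adjusted p from 0.139 to 0.789.

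PSMD3 (ENSG00000108344, chromosome 17, 39980807 to 39997959, plus strand), a scaffold subunit of the lid, had 90.5, 100 and 95.8 CPM under PFOA, 93.1, 116 and 102 under PFOS and 97.3, 95.3 and 101 under PFDA. It had 99.5, 105 and 114 CPM under PFDS, 109, 101 and 104 under 8:2 FTS and 114, 140 and 112 under 8:2 FTOH, against 102, 110 and 98.6 CPM in Control, and the 8:2 FTOH libraries were the only group wholly above Control. PSMD14 (ENSG00000115233, chromosome 2, 161308425 to 161411717, plus strand), the deubiquitinase of the lid, had 99.3, 103 and 104 CPM under 8:2 FTOH, against 79.9, 90.4 and 92.1 CPM in Control. PSMD1, a large scaffold subunit of the base, had 171, 192 and 180 CPM under 8:2 FTOH, against 166, 158 and 164 CPM in Control. The 8:2 FTOH libraries of PSMD14 and PSMD1 did not overlap Control either. The fold changes of PSMD3, PSMD14 and PSMD1 under 8:2 FTOH were 0.24, 0.22 and 0.15, and the adjusted p of PSMD3 and PSMD14 was 0.396 for both.

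The ubiquitin receptor PSMD4 had 117, 127 and 113 CPM under PFOA, 117, 122 and 123 under PFOS and 109, 120 and 116 under PFDA. It had 115, 112 and 129 CPM under PFDS, 122, 108 and 123 under 8:2 FTS and 143, 144 and 122 under 8:2 FTOH, against 121, 135 and 125 CPM in Control. Only the PFDA libraries lay apart from Control, below it, and the fold changes were -0.15 to 0.10. PSMD8, a lid subunit, had 102, 103 and 107 CPM under PFOA, 98.3, 120 and 118 under PFOS and 101, 97.9 and 109 under PFDA. Its other levels were 101, 112 and 122 CPM under PFDS, 107, 102 and 108 under 8:2 FTS and 138, 136 and 96.4 under 8:2 FTOH, against 118, 135 and 114 CPM in Control. The PFOA, PFDA and 8:2 FTS libraries lay below Control, with fold changes of -0.24, -0.25 and -0.21 and edgeR adjusted p of 0.39, 0.469 and 0.58.

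**Figure D4:**
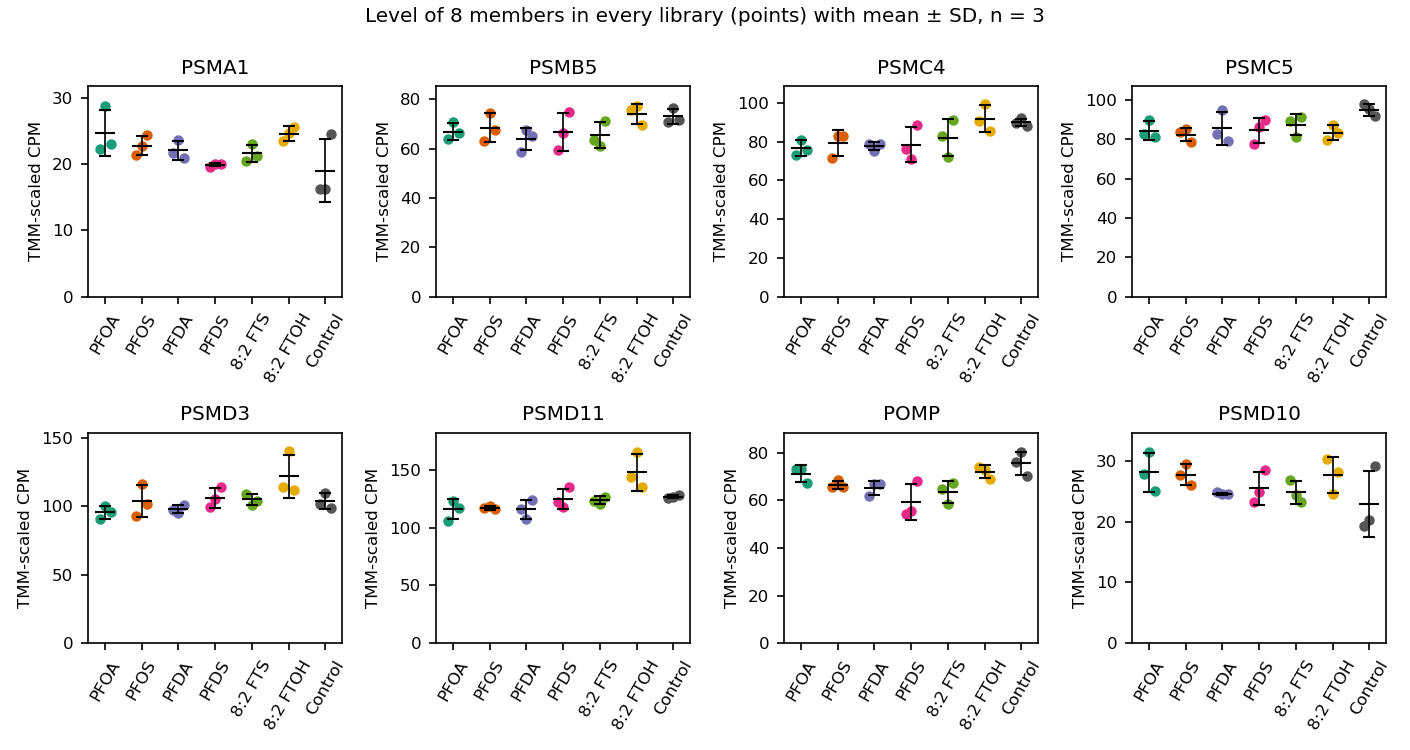
TMM-scaled CPM of 8 members in every library (points), with mean and SD (n = 3), for the 6 compounds and Control. POMP is lowest under PFDS, where replicate 3 stands apart at 68.1 CPM; PSMD11 and PSMD3 are highest under 8:2 FTOH; for PSMA1 and PSMD10, Control replicate 3 stands apart from the other Control libraries.

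POMP (ENSG00000132963, chromosome 13, 28659065 to 28678959, plus strand), the chaperone that completes the 20S core and is degraded as its first substrate, had the smallest p of any member. It had 73.1, 73.2 and 67.1 CPM under PFOA, 65.6, 68.4 and 65.4 under PFOS and 61.6, 66.7 and 66.6 under PFDA. It had 54.3, 55.6 and 68.1 CPM under PFDS, 64.7, 58.5 and 67.2 under 8:2 FTS and 74.1, 72.7 and 68.9 under 8:2 FTOH, against 76.0, 80.1 and 70.3 CPM in Control. All libraries of PFOS, PFDA, PFDS and 8:2 FTS lay below the lowest Control library. The log2 fold change was -0.34 under PFDS (SE 0.08, unadjusted p = 0.000192, edgeR adjusted p = 0.166), -0.25 under 8:2 FTS, -0.22 under PFDA, -0.19 under PFOS, -0.09 under PFOA and -0.07 under 8:2 FTOH.

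The call for POMP under PFDS turned on 1 library and on the filter. Without PFDS replicate 3 the fold change was -0.46 with an edgeR adjusted p of 0.00443, and with no filter on low counts it was -0.35 with 0.0365. Over the 13 alternatives the adjusted p ran from 0.00443 to 0.81 and the fold change from -0.46 to -0.28. PFDS replicate 3 had 27134957 counts, against 11839106 and 13313204 in the other PFDS libraries.

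The other assembly factors of the 20S core, PSMG1 to PSMG4, help build the alpha ring. PSMG4 had 32, 22.8 and 26.7 CPM under PFOA, 27.6, 27.8 and 27.2 under PFOS and 26.7, 28.4 and 26.5 under PFDA. It had 25.5, 23.4 and 23 CPM under PFDS, 29.6, 30.3 and 27.9 under 8:2 FTS and 30.5, 31.4 and 27 under 8:2 FTOH, against 25, 26.3 and 26 CPM in Control. Its PFOS, PFDA, 8:2 FTS and 8:2 FTOH libraries lay above every Control library, with fold changes of 0.10, 0.08, 0.18 and 0.21 and edgeR adjusted p of 0.912, 0.891, 0.698 and 0.632. Of the chaperones of the 19S base, PSMD9, with 14.9% of its exon bases shared, had positive fold changes under all 6 compounds (0.07 to 0.28), as did PSMD10 (0.11 to 0.29), while PSMD5 had negative ones under 4 of 6 (-0.08 to 0.13). PSMD10 (ENSG00000101843, chromosome X, 108084207 to 108091549, minus strand), also called gankyrin, had 27.8, 31.4 and 25 CPM under PFOA, 27.6, 29.5 and 26 under PFOS and 24.8, 24.5 and 24.5 under PFDA. It had 23.2, 24.8 and 28.5 CPM under PFDS, 26.8, 24.4 and 23.2 under 8:2 FTS and 30.3, 24.6 and 28.2 under 8:2 FTOH, against 19.2, 20.3 and 29.1 CPM in Control. As with PSMA1, Control replicate 3 stood with the exposed libraries. The fold change under PFOA was 0.29 (edgeR adjusted p = 0.405), and without Control replicate 3 it was 0.50 with an adjusted p of 0.0431, over alternatives from 0.0353 to 0.873.

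For the 6 compounds together, PSMA1 had a fold change of 0.24 (edgeR adjusted p = 0.349) and PSMD10 one of 0.21 (adjusted p = 0.435). Without Control replicate 3 these were 0.47 with an adjusted p of 0.0178 and 0.42 with 0.0368, over alternatives that reached 0.98 for both genes. PSMA1 and PSMD10 were the members called without that library, and both have uncertain counts.

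Among the activators, PSME3, the nuclear 11S activator, had 97.7, 121 and 102 CPM under PFOA, 103, 112 and 108 under PFOS and 111, 100 and 111 under PFDA. It had 133, 101 and 125 CPM under PFDS, 109, 111 and 127 under 8:2 FTS and 124, 117 and 106 under 8:2 FTOH, against 129, 131 and 119 CPM in Control. The PFOS and PFDA libraries lay below all Control libraries. The fold changes under PFOA, PFOS and PFDA were -0.24, -0.23 and -0.24, with edgeR adjusted p of 0.32, 0.581 and 0.457, and those of the other compounds were -0.07 to -0.13. PSME1, an interferon-responsive 11S subunit, had 40.4, 50.6 and 42.5 CPM under PFOA, 44.9, 45 and 49 under PFOS and 43.6, 42.9 and 44.1 under PFDA. It had 39.5, 47.8 and 47.6 CPM under PFDS, 50.3, 42.4 and 43.3 under 8:2 FTS and 45, 42.4 and 35.4 under 8:2 FTOH, against 43.4, 47.5 and 49.1 CPM in Control. All groups overlapped Control, and the lowest fold change was -0.18, under 8:2 FTOH. PSME4, the PA200 activator, kept fold changes between -0.01 and 0.07. PSMF1, an inhibitor of the 20S core that shares 6.56% of its exon bases with a neighbour, had 70.5, 76.6 and 76.3 CPM under PFOA, 77, 78.4 and 82.8 under PFOS and 70.5, 73.5 and 75.6 under PFDA. It had 86.5, 78.4 and 86.1 CPM under PFDS, 84.7, 77 and 88.8 under 8:2 FTS and 82.4, 82.6 and 83.1 under 8:2 FTOH, against 78.3, 83.8 and 78.5 CPM in Control. The PFOA and PFDA libraries lay below Control, and the fold changes were -0.13 to 0.06.

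PSMC3IP and PSME3IP1 match the symbol rule without being part of the particle. PSMC3IP is a meiotic recombination factor. PSME3IP1, which binds the PSME3 activator and shares 8.07% of its exon bases with an antisense gene, was the 1 member whose 18 exposed libraries all lay below Control. It had 105, 123 and 109 CPM under PFOA, 108, 111 and 122 under PFOS, 109, 106 and 113 under PFDA, 120, 103 and 124 under PFDS, 114, 106 and 120 under 8:2 FTS and 117, 118 and 116 under 8:2 FTOH. Control had 125, 126 and 124 CPM. The fold changes were -0.10 to -0.20, and for the 6 compounds together -0.14 (SE 0.06, edgeR adjusted p = 0.356).

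The summed level of the members under 8:2 FTOH was 3694, 3791 and 3453 CPM, against 3347, 3590 and 3480 CPM in Control, and the groups overlapped through 8:2 FTOH replicate 3. The members took 0.348% to 0.379% of the counts in the 8:2 FTOH libraries, against 0.316% to 0.344% in all other libraries, Control included. The sum over the 20S core was 1079, 1094 and 972.6 CPM under 8:2 FTOH, against 911, 1027 and 971.2 CPM in Control. That over the 19S cap was 1734, 1833 and 1645 CPM under 8:2 FTOH, against 1585, 1687 and 1634 CPM in Control. In all 3 sums, replicates 1 and 2 of 8:2 FTOH exceeded every Control library and replicate 3 did not. Replicate 3 is also the shallowest library and has the raised mitochondrial share, and the part of these in its value was not tested.

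Per library, the median member of 8:2 FTOH stood 0.11, 0.11 and -0.02 above the Control mean on the log2 scale. The Control libraries themselves stood at -0.05, 0.05 and 0.0. Leaving out single libraries left 30 to 39 of 48 members positive under 8:2 FTOH. Leaving out 8:2 FTOH replicate 3 and Control replicate 3 together left 37 of 48 positive with a median of 0.11. Under PFDS the summed level was 3161, 3155 and 3496 CPM, and replicate 3 was again the one apart.

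**Figure D5:**
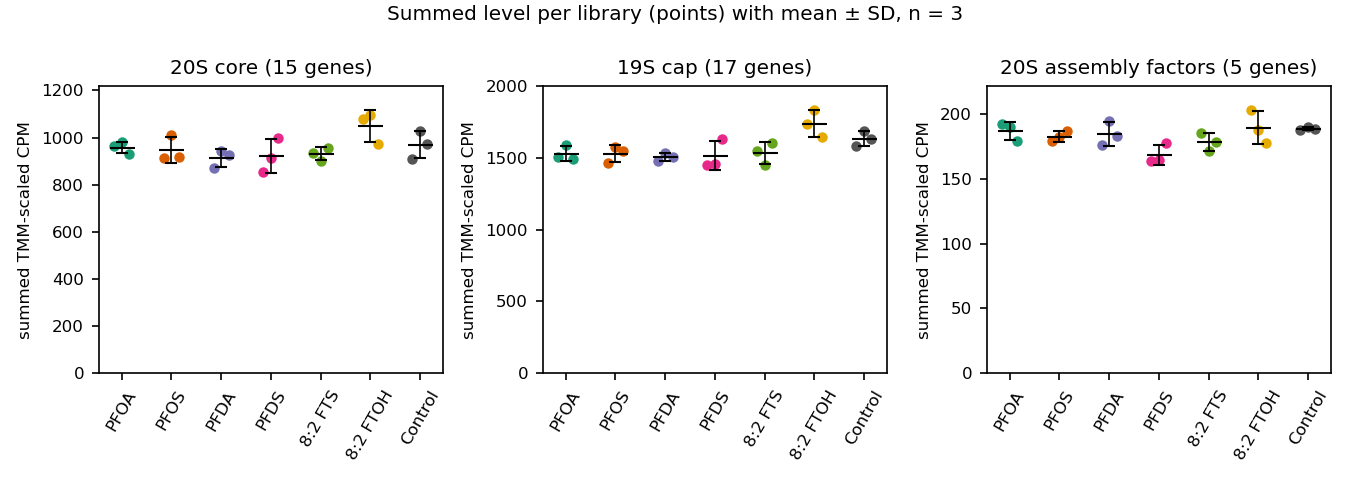
Summed TMM-scaled CPM of groups of members in every library (points), with mean and SD (n = 3), for the 6 compounds and Control. Replicates 1 and 2 of 8:2 FTOH, at 1079 and 1094 CPM for the 20S core and 1734 and 1833 CPM for the 19S cap, stand above the Control libraries, and replicate 3 stands among them.

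The 6 pairs of related compounds were compared at the same dose and time, and p-values were adjusted over all genes within each pair. No member was called in any pair. The share of all genes called was 0.00402% for PFDS against PFOS and 0% for the other 5 pairs. At this spread a p that misses the threshold does not show that a pair acted alike. For the longer against the shorter chain, the member median was -0.03 for PFDA against PFOA and -0.02 for PFDS against PFOS, and 45 and 46 of 48 members had their whole 95% interval within 0.5 on the log2 scale. The smallest p for chain length was that of PSMA3, an alpha subunit, with -0.19 for PFDA against PFOA (95% interval -0.36 to -0.02, edgeR adjusted p = 1.0). For POMP, PFDS against PFOS gave -0.16 (95% interval -0.33 to 0.01, edgeR adjusted p = 0.999).

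For the sulfonic against the carboxylic head group, the member median was 0.00 for both PFOS against PFOA and PFDS against PFDA, with 24 of 48 members positive in each, and 44 and 46 intervals lay within 0.5. PSMF1 had the smallest p, with 0.19 for PFDS against PFDA (95% interval 0.04 to 0.34, edgeR adjusted p = 0.89). For 8:2 FTS against PFDS, which are both sulfonic acids, the member median was 0.01 and 27 of 48 members were positive. PSMG4 differed most by p, with 0.29 (95% interval 0.08 to 0.51, edgeR adjusted p = 0.999).

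The pair with the largest member median was 8:2 FTS against 8:2 FTOH, the sulfonic acid against the alcohol. The median was -0.14, beside 0.00 for all genes, and 40 of 48 members were negative. Of the 31 core and cap subunits 29 were negative, with a median of -0.18. At an unadjusted p under 0.05, 0 members were positive and 15 negative, against 1.48% and 1.78% of all genes. The 8:2 FTS libraries lay wholly below the 8:2 FTOH libraries for 12 members and above them for 0, beside 4.2% and 4.23% of all genes. The count of 15 was 7 without 8:2 FTOH replicate 1 or without 8:2 FTOH replicate 2, 8 without 8:2 FTS replicate 2, and 19 without 8:2 FTOH replicate 3 (also with Control replicate 3 left out) or without 8:2 FTS replicate 3; these totals cover both directions.

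None of these passed the adjustment: the lowest adjusted p of a member was 0.957. PSMB2, a structural beta subunit, had 87.8, 92.8 and 94.5 CPM under 8:2 FTS and 114, 123 and 97.7 CPM under 8:2 FTOH, without overlap. Its fold change was -0.29 (95% interval -0.46 to -0.12, edgeR unadjusted p = 0.00119). PSMD11 had -0.27 (95% interval -0.42 to -0.11, edgeR unadjusted p = 0.00113). Under scaling by total counts 37 of 48 members were negative. That scaling moved the median of all genes in this pair only to 0.01, so it could hardly turn the direction. Leaving out single libraries left 7 to 10 of 48 positive. The 95% interval lay within 0.5 for 46 of 48 members.

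Genes that work with the proteasome were followed in 5 further lists, and none of their members was called in any comparison. Of the 4 cap subunits with other symbols and bound deubiquitinases, SEM1, a small lid subunit, had fold changes of -0.30 under PFDS and -0.29 under 8:2 FTOH, with edgeR adjusted p of 0.702 and 0.499. Of 10 shuttle factors, 2 were positive under PFOA, 4 under PFOS, 0 under PFDA, 7 under PFDS, 5 under 8:2 FTS and 9 under 8:2 FTOH. NPLOC4, the cofactor that delivers ubiquitin chains to the VCP segregase, had 174, 219 and 191 CPM under 8:2 FTOH, against 167, 161 and 150 CPM in Control, without overlap. Its fold change was 0.29 (SE 0.07, unadjusted p = 0.000328, edgeR adjusted p = 0.146). VCP itself had 0.18 (edgeR adjusted p = 0.525) and the autophagy receptor SQSTM1 0.21 (adjusted p = 0.557) under 8:2 FTOH.

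Of the 10 proteasome-bound factors, AKIRIN2, which carries proteasomes into the nucleus, had 49.6, 56.6 and 53.5 CPM under PFOA and 49.8, 53.1 and 56.6 under PFDA, against 63.6, 66.5 and 61.3 CPM in Control, without overlap (fold change -0.26 for both, edgeR adjusted p = 0.341 and 0.457). Of 8 genes of transcriptional control, 2 were positive under PFOA, 5 under PFOS, 3 under PFDA, 4 under PFDS, 4 under 8:2 FTS and 6 under 8:2 FTOH. Among them NFE2L1, the activator of proteasome genes, had a fold change of -0.24 under PFOA (SE 0.08, edgeR adjusted p = 0.298) and of -0.08 under 8:2 FTOH. A link between NFE2L1 and the directions of the members was not tested. Among the other lists, the smallest p for the 6 compounds together belonged to UBQLN4 (-0.09) of the shuttle factors and NLRC5 (-0.72, SE 0.37) of the 7 tested interferon-induced genes, with edgeR adjusted p of 0.619 and 0.514.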

How the data were processed

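RNA was measured in 21 libraries of SH-SY5Y cells, 3 in each of 7 groups. Per the labels' protocols, RNA was extracted with TriZol and sequenced with a stranded, ribosome-depleted total RNA kit. Per the submitters' processing notes, the authors aligned the reads to hg38 with HISAT2. Per the file headers, the deposited raw counts per gene came from featureCounts 2.0.1 without strand or pair options, with multi-mapping and ambiguous reads left out. The deposited normalized table (signal, 19 libraries) held raw counts divided by 1 factor per library and was checked but not tested. It leaves out Control replicate 3 and 8:2 FTOH replicate 3.

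Raw counts were filtered with filterByExpr, scaled with TMM and fitted with edgeR 4.0.16 (R 4.3.3) quasi-likelihood models, robust, over all 21 libraries, with a biological coefficient of variation of 0.1124. Each of 13 comparisons was adjusted by Benjamini-Hochberg over 24879 genes at 0.05. DESeq2 1.42.0, library-size scaling, DESeq2 size factors, no filter, fits of only the groups compared, leaving out libraries and a replicate block were alternatives. The procedure was tested on simulated data. Levels are TMM-scaled CPM, or RPKM for comparison between genes. Values in every library are given for the 3 members with the smallest p per compound, the highest member of each role, the catalytic subunits and POMP. Of the other lists, the gene with the smallest p for the 6 compounds together is named. PSMA3, PSMB2, PSMD1, PSMD5, PSMD9, PSMD14, PSMG4, PSME4, NPLOC4, VCP and SQSTM1 were chosen after their values were seen.

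The numbers of the replicates do not pair the samples: same-numbered libraries had correlated deviations over 0.1 in 1 of 63 pairs (-0.12 to 0.132). Promoters and motif positions are from RefSeq, GRCh38.p14. The members and lists were chosen with earlier results of these data known. The result of 1 further list is not reported here.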

Additional observations from a re-analysis of the deposited data

How the results depend on the processing

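With libraries scaled by total counts, the median fold change of the members was 0.03 for PFOA and -0.03 for both PFOS and PFDA. Leaving out single libraries moved the PFOA median between -0.08 and -0.02. Members called numbered 2 for PFOA and 2 for the 6 compounds together without Control replicate 3 and 8:2 FTOH replicate 3 (PSMA1 and PSMD10), and 1 for PFDS with no filter on low counts (POMP). Leaving out single libraries gave 0 to 2 for PFOA and for the 6 compounds, and 0 to 1 for PFDS and for 8:2 FTOH; the libraries that decided were Control replicate 3 and PFDS replicate 3. With a replicate block, 0 members were called in all 13 comparisons. Positive members numbered 17 of 48 for PFOA and 37 of 48 for 8:2 FTOH, as without it. Every group holds the same replicate numbers, so the block could hardly change these directions. Of 2484 values of named genes under alternatives, 2363 kept their direction and side of the threshold, 11 passed it, and 110 changed sign without being called in either fit. The cause of these differences was not tested.

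The number of genes called over the whole table moved more. Without a filter on low counts it was 161 (PFOA), 52 (PFOS), 68 (PFDA), 86 (PFDS), 126 (8:2 FTS), 107 (8:2 FTOH) and 286 (6 compounds), against 8, 6, 2, 6, 21, 8 and 87 with the filter. DESeq2 called 128, 19, 23, 34, 49, 59 and 196 in that order. Without the 2 libraries the counts were 169, 27, 25, 26, 61, 10 and 163, and in fits of only the groups compared 82, 48, 60, 2, 50 and 31. Scaling by total counts gave 4 for PFOA, 13 for PFDS and 54 for the 6 compounds, and a replicate block gave 1 for PFDA. Leaving out single libraries gave 1 to 136 for PFOA, 1 to 100 for PFDS and 4 to 217 for the 6 compounds. Searching promoters before the start only found TGACNNNGC in 24.4% of the member promoters and 11.1% of those of core and cap subunits. It found the motif in 11.0% of all promoters and 11.5% of protein-coding ones. Depth limits PSMB8, PSMB9, PSMB11 and PSMA8, whose counts are too low for a fold change of useful precision.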
